A study of Homo sapiens with 12 samples.

Results

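Transcripts of 7 genes for chemokines, a cytokine and myeloid-type receptors or adaptors (CX3CL1, CXCL10, CXCL11, IL32, LAT2, PTAFR and CD14) were examined in SW480, an established human colon adenocarcinoma cell line, after the level of GPD1L had been lowered or raised. The 7 genes were picked by symbol because they were lower in one or both comparisons, and all 7 were found among the 13554 and 13583 genes listed for the knockdown and the overexpression. The choice rested on the same values that are described here, so their differences carry no test. The study compared stably transfected SW480 lines in 4 groups of 3 libraries: shGPD1L, with a short hairpin RNA against GPD1L; shNC, its hairpin control; OE, overexpressing GPD1L; and Vector, its vector control. GPD1L encodes a relative of the cytosolic glycerol-3-phosphate dehydrogenase. The digit in the gene name of the genotype labels runs with the replicate and was read as a slip. On that reading the labels name no second hairpin or construct. An effect of GPD1L and any other difference between the transfected lines therefore cannot be told apart. The labels do not say whether a line is a clone or a pool, nor whether the replicates were cultured separately. The p-values given for other genes therefore measure only the spread between these libraries, which may be technical.

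Chemokines are small secreted proteins that guide migrating leukocytes through G protein-coupled receptors. CXCL10 and CXCL11, with CXCL9, are induced by interferons and attract activated T cells and natural killer cells through the receptor CXCR3. CX3CL1 (fractalkine) is made as a membrane-anchored protein with a chemokine domain on a mucin stalk, is released by the proteases ADAM10 and ADAM17, and is read by CX3CR1 on monocytes and lymphocytes. IL32 is a cytokine first described in lymphocytes and natural killer cells and is also made by epithelial cells. CD14 is the co-receptor that passes lipopolysaccharide to Toll-like receptor 4, PTAFR is the G protein-coupled receptor for platelet-activating factor, and LAT2 is a transmembrane adaptor that links immunoreceptors to intracellular signalling in B cells, mast cells and monocytes. These receptors are best known from myeloid cells, and epithelial and tumour cells can also transcribe them.

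Values are FPKM, which adjust fragment numbers for transcript length and for the size of the library. Sums of listed values lay between 421714 and 444794 FPKM per library; the read depth is unknown. GPD1L, the check of the labels, ranged from 8.01 to 9.10 FPKM in shNC, from 1.26 to 2.23 FPKM in shGPD1L, from 10.2 to 11.1 FPKM in Vector and from 22.1 to 22.8 FPKM in OE. The knockdown library of replicate 3 lay far from the rest on component 1 of a principal component analysis, with a score of 29.1 where the others had -12.1 to 0.3. The knockdown differences of the 7 genes, and the knockdown calls in the gene lists, are therefore also given without it.

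In the knockdown, CXCL10, CXCL11, IL32, LAT2 and PTAFR were lower in 3 of 3 shGPD1L libraries than in any shNC library, while CX3CL1 and CD14 overlapped between the groups. In the overexpression, all 7 genes were lower in 3 of 3 OE libraries than in any Vector library. The 5 and 7 genes with separate groups compare with 15.1% and 17.6% of all genes tested whose treated libraries all lay below the controls; for 9.54% and 24.2% they all lay above. Because the genes were chosen from these contrasts, nothing is read from either count. All 7 passed the filter on low values, which asked for 1 FPKM or more on average across the 6 libraries compared. CD14 passed it in the overexpression through its controls alone, since its OE mean was 0.811 FPKM. The median difference of the 7 genes on the log2(FPKM + 1) scale was -0.71 in the knockdown and -0.64 in the overexpression, beside -0.04 and 0.02 over all genes tested. Differences on that scale understate the change of genes at low FPKM. Without shGPD1L replicate 3 the same count of 5 genes was separate in the knockdown. Leaving out a library cannot make separate groups overlap, and the share of all genes was not computed for that setting. Nothing is read from this count either.

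**Figure D1:**
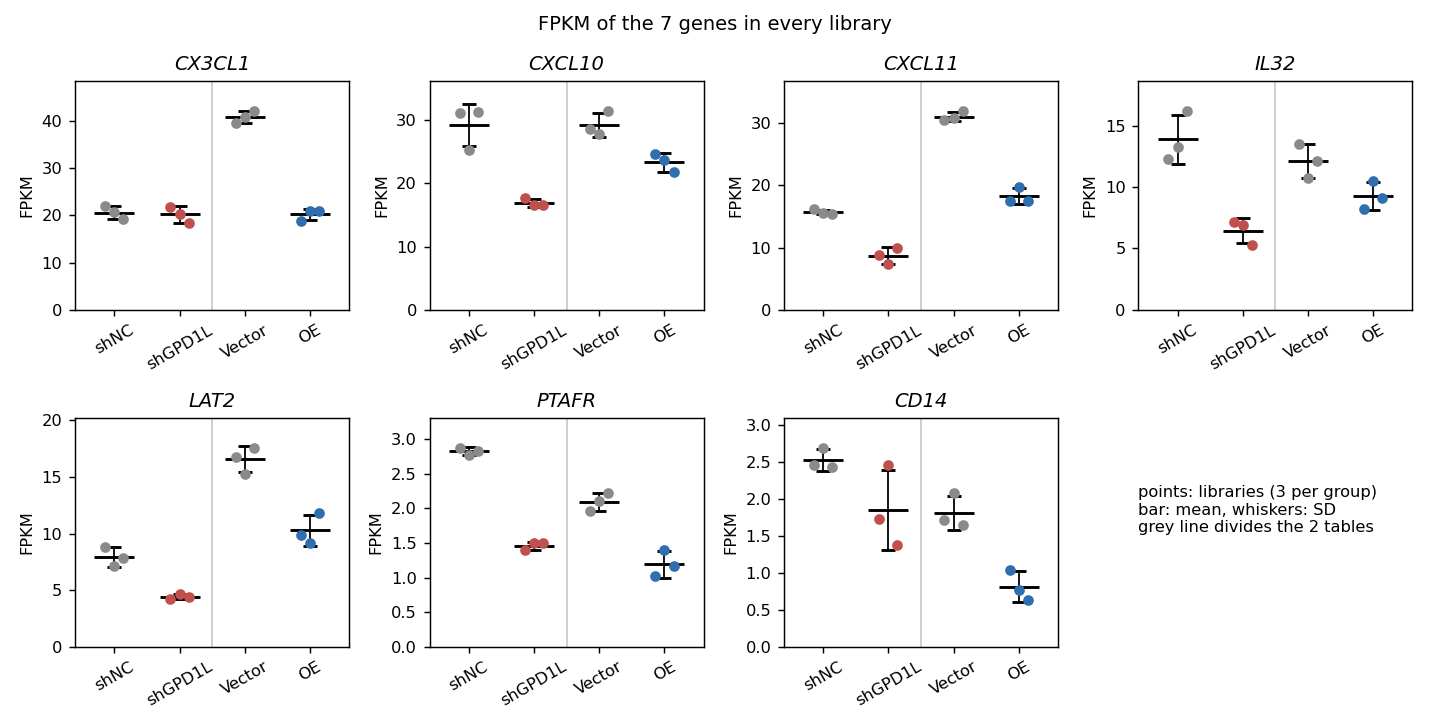
FPKM of each of the 7 genes (vertical axis, from 0) in every library of shNC, shGPD1L, Vector and OE; points are libraries, the bar is the mean and whiskers are the SD of 3 libraries, and the grey line divides the 2 tables. Each gene was lower in OE than in Vector, and CX3CL1 was near 20 FPKM in all groups but Vector, where its mean was 40.8.

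The interferon-inducible ligands CXCL10 and CXCL11 were lower in both comparisons. CXCL10 (ENSG00000169245, chromosome 4, 76021117 to 76023497, minus strand, GRCh38) was at 31.0, 25.3 and 31.2 FPKM in shNC and at 17.7, 16.5 and 16.6 FPKM in shGPD1L. All shGPD1L values lay below the lowest control, and the mean went from 29.2 ± 3.3 to 16.9 ± 0.639 FPKM (SD, n = 3 each), a ratio of 0.581. In the overexpression CXCL10 was at 28.6, 27.7 and 31.4 FPKM in Vector and at 24.6, 23.6 and 21.7 FPKM in OE. Here the groups were also separate, with a smaller gap and a ratio of means of 0.797. The log2 difference was -0.74 in the knockdown, -0.73 without shGPD1L replicate 3, and -0.32 in the overexpression.

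CXCL11 (ENSG00000169248, chromosome 4, 76033682 to 76041415, minus strand) lies 10.2 kb from CXCL10. It was at 16.1, 15.6 and 15.4 FPKM in shNC and at 8.77, 7.34 and 9.97 FPKM in shGPD1L. The controls were tightly grouped and every knockdown library was below them, with a ratio of means of 0.554. In the overexpression CXCL11 was at 30.5, 30.7 and 31.9 FPKM in Vector and at 17.5, 19.7 and 17.4 FPKM in OE, a ratio of 0.587. The log2 differences were -0.79 (-0.89 without shGPD1L replicate 3) and -0.74, so for CXCL11 the values of the 2 comparisons lay closer to each other than for CXCL10. Both genes lie within ART3 on the opposite strand, which was not listed in either comparison, and strandedness is not stated.

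The third ligand of CXCR3, CXCL9, is not 1 of the 7 genes and was tested with limma, a moderated linear model fitted over all genes. It was at 2.51, 2.61 and 3.09 FPKM in shNC and at 1.38, 1.16 and 2.32 FPKM in shGPD1L, a log2 difference of -0.53 that did not pass limma (adjusted p = 0.199). The highest knockdown value was that of replicate 3, and without that library the difference was -0.72 and CXCL9 was called lower (adjusted p = 0.0219). In the overexpression the means of CXCL9 were 4.11 ± 0.177 FPKM for Vector and 3.89 ± 0.116 FPKM for OE (SD, n = 3 each; limma adjusted p = 0.527).

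The promoters of the genes with a RefSeq window (GRCh38.p14) are shown because CXCL10, CXCL11, IL32 and PTAFR were lower together in both comparisons. Each line gives the 250 bases before the RefSeq start on the gene's strand, 5′ to 3′, and capitals mark a match on either strand to any of 8 motifs. The windows are chr4:76023498-76023747 (minus strand) for CXCL10, chr4:76036071-76036320 (minus strand) for CXCL11, chr16:3065153-3065402 (plus strand) for the first of 2 IL32 starts and chr1:28193857-28194106 (minus strand) for the first of 2 PTAFR starts.
CXCL10: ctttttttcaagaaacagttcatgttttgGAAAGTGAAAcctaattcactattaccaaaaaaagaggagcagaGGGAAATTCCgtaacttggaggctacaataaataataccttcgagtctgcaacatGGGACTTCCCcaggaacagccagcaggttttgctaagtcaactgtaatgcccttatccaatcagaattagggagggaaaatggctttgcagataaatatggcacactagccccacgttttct
CXCL11: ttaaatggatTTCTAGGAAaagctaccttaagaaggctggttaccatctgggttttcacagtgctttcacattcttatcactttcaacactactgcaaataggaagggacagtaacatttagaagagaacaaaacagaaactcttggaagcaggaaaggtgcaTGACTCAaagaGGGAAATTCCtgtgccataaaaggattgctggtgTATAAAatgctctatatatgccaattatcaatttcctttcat
IL32: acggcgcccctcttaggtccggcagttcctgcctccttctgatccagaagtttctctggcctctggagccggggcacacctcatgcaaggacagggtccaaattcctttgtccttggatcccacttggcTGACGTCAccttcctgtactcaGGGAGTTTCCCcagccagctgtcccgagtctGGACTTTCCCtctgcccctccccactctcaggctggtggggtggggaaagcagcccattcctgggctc
PTAFR: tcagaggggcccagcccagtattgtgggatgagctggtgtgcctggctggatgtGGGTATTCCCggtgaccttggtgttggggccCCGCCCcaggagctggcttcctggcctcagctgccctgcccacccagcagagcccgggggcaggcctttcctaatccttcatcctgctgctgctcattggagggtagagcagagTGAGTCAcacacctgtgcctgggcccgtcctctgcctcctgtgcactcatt

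In all, 7 windows of 5 of the genes were searched. A match to the NF-kB pattern GGGANNNNCC was present in 4 of the 7, which are the windows shown, and in 22.6% of all 35116 promoter windows of the same length. The CD14 window and the second windows of IL32 and PTAFR held no such match. The CXCL10 window held it at 177 to 168 and at 122 to 113 bases before the start, and the CXCL11 window at 76 to 67 bases before the start. The first IL32 window held it at 99 to 90, overlapped by a match on the other strand at 98 to 89, and at 68 to 59 bases before the start, and the first PTAFR window at 196 to 187. The interferon-stimulated response element pattern GAAANNGAAA occurred in the CXCL10 window, at 221 to 212 bases before the start, and in 3.02% of all windows. The STAT pattern TTCNNNGAA was present for CXCL11 and CD14 and in 6.57% of all windows. The AP-1 pattern TGACTCA was found for CXCL11, PTAFR and CD14 and in 4.2% of all windows. The pattern TGACGTCA, to which CREB and ATF family factors bind, occurred in the first IL32 window at 121 to 114 bases before the start and in 1.65% of all windows. The remaining patterns were GAGGAAG for the myeloid factor PU.1 (11.2% of all windows; present for CD14), GGGCGG for SP1 (42.6%; present for PTAFR and for the second IL32 window) and the TATA box TATAAA (10.7%; present for CXCL11). The second PTAFR window held none of the 8. A match describes the letters of these windows only. The letters of the motifs were chosen with the promoter sequences in view, so nothing is read from these counts beside the shares of all windows. CX3CL1 and LAT2 had no promoter entry.

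CX3CL1 (ENSG00000006210, chromosome 16, 57372458 to 57385048, plus strand) was, with CD14, 1 of 2 genes whose groups overlapped in the knockdown and were separate in the overexpression; the difference between the comparisons was not tested. It was at 21.9, 20.8 and 19.2 FPKM in shNC and at 21.8, 20.2 and 18.4 FPKM in shGPD1L. These groups overlapped throughout, with means of 20.6 ± 1.34 and 20.2 ± 1.72 FPKM (SD, n = 3 each). In the overexpression CX3CL1 was at 39.5, 40.8 and 42.1 FPKM in Vector and at 18.8, 21.0 and 20.9 FPKM in OE. The lowest Vector library was far above the highest OE library, and the ratio of means was 0.495. The log2 differences were -0.03 in the knockdown, 0.03 without shGPD1L replicate 3, and -0.98 in the overexpression. On the knockdown side its sign also turned with median-of-ratios scaling (0.01), with quantile normalization (0.0006) and without shNC replicate 1 (0.008).

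The proteases that release CX3CL1 did not share this pattern. ADAM17 was at 15.4, 14.8 and 15.5 FPKM in Vector and at 20.4, 19.9 and 19.9 FPKM in OE, and rose by 0.38 on the log2 scale (SE 0.0483, limma adjusted p = 0.00193). In the knockdown it was at 14.8 FPKM in each group (limma adjusted p = 0.993). ADAM10 was at 12.8 and 12.2 FPKM in shNC and shGPD1L (adjusted p = 0.742) and at 12.7 and 12.4 FPKM in Vector and OE (limma adjusted p = 0.65).

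IL32 (ENSG00000008517, chromosome 16, 3065297 to 3082192, plus strand) had the lowest ratio of the 7 genes in the knockdown. It was at 12.3, 13.3 and 16.2 FPKM in shNC and at 7.13, 6.91 and 5.26 FPKM in shGPD1L, a ratio of means of 0.463. The lowest value was that of shGPD1L replicate 3, and the log2 difference of -1.0 was -0.89 without it. In the overexpression IL32 was at 13.5, 10.7 and 12.1 FPKM in Vector and at 8.23, 10.5 and 9.08 FPKM in OE. The groups were separate by a narrow margin, 10.7 FPKM for the lowest Vector library against 10.5 FPKM for the highest OE library, with a ratio of 0.766 and a log2 difference of -0.35. IL32 also overlaps an antisense long non-coding gene, which was not listed in either comparison.

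LAT2 (ENSG00000086730, chromosome 7, 74199652 to 74229834, plus strand), the adaptor, was at 8.85, 7.10 and 7.80 FPKM in shNC and at 4.23, 4.68 and 4.35 FPKM in shGPD1L. The knockdown libraries were close to one another and all below the controls, with a ratio of means of 0.558. In the overexpression LAT2 was at 16.8, 15.3 and 17.6 FPKM in Vector and at 9.87, 9.18 and 11.8 FPKM in OE, a ratio of 0.621. The log2 differences were -0.71 (also -0.71 without shGPD1L replicate 3) and -0.64.

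PTAFR (ENSG00000169403, chromosome 1, 28147166 to 28193936, minus strand), the receptor for platelet-activating factor, was a low transcript with a small spread. It was at 2.88, 2.77 and 2.83 FPKM in shNC and between 1.40 and 1.5 FPKM in the 3 shGPD1L libraries. The SD was 0.0568 and 0.0585 FPKM in these groups and the ratio of means 0.518. In the overexpression PTAFR was at 1.96, 2.10 and 2.22 FPKM in Vector and at 1.02, 1.40 and 1.16 FPKM in OE, a ratio of 0.571. Its log2 differences of -0.64 (-0.65 without shGPD1L replicate 3) and -0.50 depend on the pseudocount and were -0.91 and -0.77 with 0.1 FPKM in place of 1.

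CD14 (ENSG00000170458, chromosome 5, 140631728 to 140633701, minus strand), the lipopolysaccharide co-receptor, was at 2.45, 2.69 and 2.43 FPKM in shNC and at 1.73, 2.45 and 1.38 FPKM in shGPD1L. The second knockdown library was at the level of the controls, so the groups overlapped, with means of 2.52 ± 0.148 and 1.85 ± 0.543 FPKM (SD, n = 3 each). The log2 difference was -0.32, or -0.20 without shGPD1L replicate 3. In the overexpression CD14 was at 1.71, 2.07 and 1.64 FPKM in Vector and at 1.04, 0.762 and 0.629 FPKM in OE. Its ratio of means of 0.448 was the lowest of the 7 genes in this comparison, and its log2 difference of -0.64 was -1.08 with a pseudocount of 0.1 FPKM.

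The control lines themselves differed in part of the set. As each table may have had its own normalization, levels across the tables are given side by side without a test. CX3CL1 was 1.98 times as high in Vector as in shNC, CXCL11 1.98 times and LAT2 2.09 times. Over 11208 annotated genes tested in both tables, the median log2 difference of Vector minus shNC was -0.013. A difference at least as large as that of CX3CL1, CXCL11 and LAT2 was found for 1.95%, 2.06% and 1.78% of these genes. The falls for which these 3 genes were chosen are measured from the control values, so nothing is read from these shares. For these 3 genes the OE mean was nearer to the shNC mean than the Vector mean was: 20.2 against 20.6 FPKM for CX3CL1, 18.2 against 15.7 FPKM for CXCL11, and 10.3 against 7.92 FPKM for LAT2. CXCL10 had the same mean in both controls, 29.2 FPKM, and the Vector to shNC ratios of IL32, PTAFR and CD14 were 0.869, 0.74 and 0.717. For CXCL10, IL32, PTAFR and CD14 the OE mean (23.3, 9.27, 1.19 and 0.811 FPKM) was further from the shNC mean than the Vector mean was.

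Ordered by their means, the groups ran Vector, OE, shNC and shGPD1L for CXCL11 and for LAT2, with no overlap between neighbours in either order. For CXCL10 Vector and shNC overlapped, followed by OE and then shGPD1L, each separate from the group above. For IL32 shNC and Vector overlapped, followed by OE and shGPD1L without overlap. For PTAFR shNC was highest, Vector next, and shGPD1L and OE overlapped at the bottom. For CD14 shNC, shGPD1L and Vector overlapped in turn and OE lay below. For CX3CL1 Vector was separate, and shNC, OE and shGPD1L overlapped. At FPKM, which is per length, CX3CL1, CXCL10 and CXCL11 were the most abundant of the 7 in Vector (29.2 to 40.8 FPKM), LAT2 and IL32 intermediate (16.6 and 12.1 FPKM), and PTAFR and CD14 near 2 FPKM (2.09 and 1.81 FPKM).

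**Figure D2:**
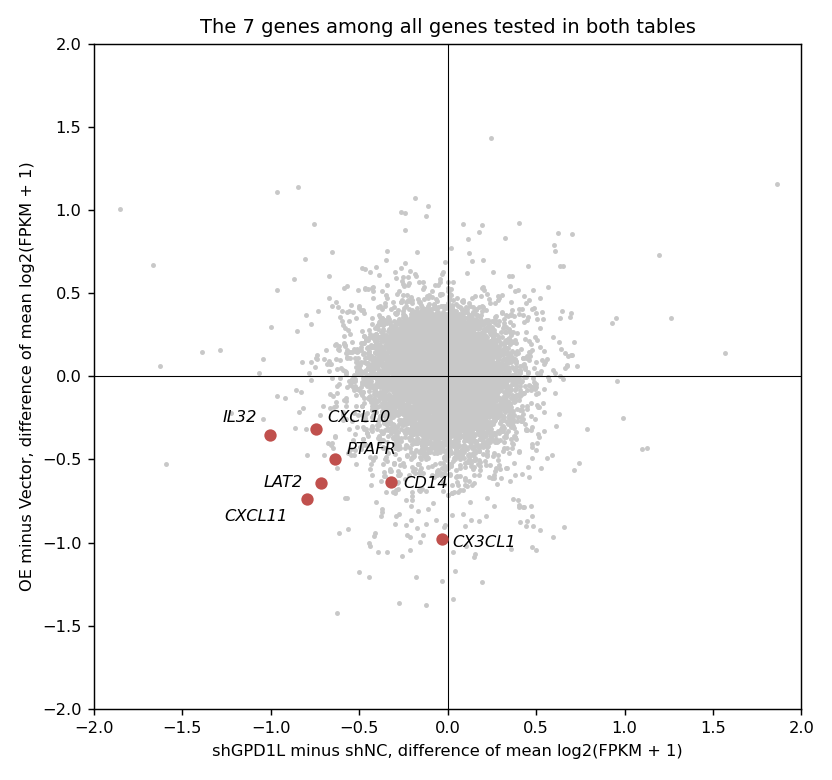
Difference of mean log2(FPKM + 1) for shGPD1L minus shNC (horizontal axis) and OE minus Vector (vertical axis); grey points are 11204 genes tested in both tables, with 4 more outside the axes, and red points are the 7 genes. CX3CL1 lies at -0.03 and -0.98, and the other 6 genes lie below 0 on both axes.

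The genes whose pattern was most like that of a member were sought over the 12 libraries, on log2(FPKM + 1) centred on the gene's mean in its own table, among 11207 other genes. The coefficients share the libraries and the group differences for which the members were chosen, and are a description. The nearest gene to CXCL11 was another of the 7, PTAFR (Pearson r 0.967), followed by MXRA8 (0.963) and SLC46A1 (0.961). CXCL10 was nearest to the zinc transporter gene SLC39A11 (0.972), the interferon-induced gene HERC6 (0.959) and the trefoil factor gene TFF3 (0.95), and HERC6 was also second nearest to PTAFR (0.965). IL32 was nearest to SLC39A11 (0.952), ZNF554 (0.938) and the keratin gene KRT80 (0.934). LAT2 was nearest to the metalloproteinase gene MMP24 (0.968), SELENBP1 (0.959) and PDHB (0.94), and MMP24 was also near to PTAFR (0.959).

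Genes near to CX3CL1 included HADH (Pearson r 0.972) and the interferon-induced gene IFITM1 (0.962). IFITM1 was at means of 19.4 and 16.7 FPKM in shNC and shGPD1L and at 60.2 and 32.5 FPKM in Vector and OE. CD14 was nearest to the epithelial adhesion gene EPCAM (0.968), KBTBD6 (0.928) and AGR2 (0.924). The most opposite genes were BTG1 for CX3CL1 (-0.981), LONRF1 for CXCL11 (-0.955), CDK16 for CXCL10 (-0.95), CDC25B for IL32 (-0.95), FBRS for LAT2 (-0.966), CYTH3 for PTAFR (-0.942) and ANKRD11 for CD14 (-0.945). BTG1 was at 7.76 and 7.75 FPKM in shNC and shGPD1L and at 13.5 and 19.7 FPKM in Vector and OE.

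The nearest listed genes on either side of the 7 on their chromosomes were 12 genes other than the 7, of which 11 passed the filter. Of these, 0 were called by limma in the knockdown (0.592% of all genes tested were), with 1, CXCL9, at an unadjusted p of 0.0138, and 2 were called, both lower, in the overexpression (22.4% of all genes tested were). CXCL10 and CXCL11 are each other's neighbours, and CXCL9, described above, lies 13.6 kb from CXCL10 on its other side. NUP54, 73.2 kb above CXCL11, had log2 differences of -0.27 (limma adjusted p = 0.408) and 0.01 (adjusted p = 0.937). The neighbours of LAT2 at 2.6 and 1.7 kb, EIF4H and RFC2, were at -0.12 and -0.21 in the knockdown (limma adjusted p = 0.665 and 0.416) and at 0.02 and -0.28 in the overexpression (adjusted p = 0.742 and 0.023), so RFC2 fell in OE. DNAJC8, 5.5 kb from PTAFR, and NDUFA2, 5.0 kb from CD14, were called in neither comparison. PLLP, 87.8 kb below CX3CL1, was at 40.4 FPKM in shNC and in shGPD1L and fell from 56.8 to 40.6 FPKM in the overexpression (log2 difference -0.47, limma adjusted p = 0.000722). CIAPIN1, on the other side of CX3CL1 at 43.1 kb, averaged 24.7 and 22.4 FPKM in Vector and OE (limma adjusted p = 0.0912).

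Other genes around the 7 were taken from lists of ligands, receptors, signalling proteins, targets and cell type markers, with the 7 left out. Of 258 such genes, 106 were tested in the knockdown and 1 was called, lower (0.943%, against 0.592% of all genes tested, 0.477% lower and 0.115% higher), with 22 at an unadjusted limma p under 0.05 (which 16.3% of all genes tested had). Without shGPD1L replicate 3, 11 of 105 were called, 3 higher and 8 lower (10.5%, against 5% of all genes tested). In the overexpression 34 of 104 were called, 13 higher and 21 lower (32.7%, against 22.4% of all genes tested, 12.2% higher and 10.3% lower), and 50 were at an unadjusted p under 0.05, which 37.9% of all genes tested had. The same shares of all genes tested stand beside the counts of each list below. The lists were chosen with earlier results of these data known, so their counts are a description.

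**Figure D3:**
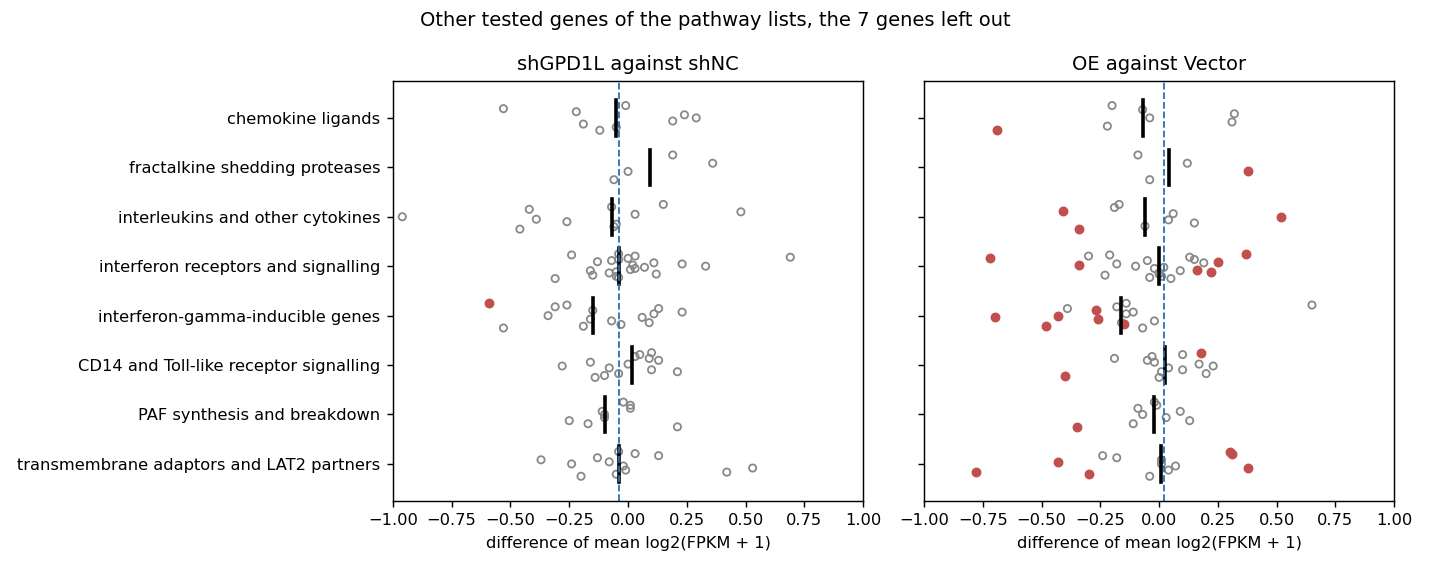
Difference of mean log2(FPKM + 1) of the tested genes of 8 pathway lists, without the 7 genes, in the knockdown (left) and the overexpression (right); points are genes, filled red where called by limma, black bars are list medians and the dashed line is the median of all genes tested. The 1 filled point of the knockdown is IFI35 at -0.59, and in the overexpression the interferon-gamma-inducible list has 6 filled points, all below 0.

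Among the other chemokine ligands, 9 of 40 were tested in the knockdown and 0 were called by limma, with 1 at an unadjusted p under 0.05 and 1 called, CXCL9, without shGPD1L replicate 3. In the overexpression 7 were tested and 1 fell, CCL5, a chemokine that attracts T cells and monocytes. CCL5 was at 76.6, 82.9 and 83.7 FPKM in Vector and at 47.9, 46.9 and 54.9 FPKM in OE, a log2 difference of -0.69 (SE 0.0669, limma adjusted p = 0.000588). Like CX3CL1 it was separate between the groups there, and in the knockdown it was at 56.3 ± 5.69 and 52.5 ± 13.3 FPKM (SD, n = 3 each; limma adjusted p = 0.759). The neutrophil-attracting ligand CXCL8 was at 4.77 and 6.20 FPKM in Vector and OE and did not pass (log2 difference 0.32, limma adjusted p = 0.0505). Of 22 chemokine receptors CCR9 and CCR10 were listed, both under the filter. CXCR3, CX3CR1 and the scavenging receptor ACKR3 were not listed in either comparison.

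Of 11 other cytokine genes tested in the knockdown 0 were called by limma, with 4 at an unadjusted p under 0.05. Of 9 tested in the overexpression 1 rose and 2 fell. The alarmin gene IL33 rose by 0.52 on the log2 scale, from a mean of 67.4 ± 4.26 to 97.2 ± 5.86 FPKM (SD, n = 3 each; limma adjusted p = 0.00144). The macrophage growth factor gene CSF1 fell by 0.41 on the log2 scale (adjusted p = 0.00393), and IL1RN, the interleukin-1 receptor antagonist gene, by 0.34 (limma adjusted p = 0.0123). In the knockdown the means of IL33 were 91.0 ± 2.67 FPKM for shNC and 48.9 ± 21.4 FPKM for shGPD1L (SD, n = 3 each; log2 difference -0.96, limma adjusted p = 0.137). Without shGPD1L replicate 3, 4 of these cytokine genes were called in the knockdown. IL33 (-1.29, limma adjusted p = 0.00029), IL1RN (-0.67, adjusted p = 0.0404) and IL18 (-0.45, adjusted p = 0.032) were lower there, and CSF1 was higher (0.46, adjusted p = 0.0307).

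Of the interferon receptors, kinases and transcription factors, 23 were tested in each comparison. In the knockdown 0 were called by limma, with 4 at an unadjusted p under 0.05, and without shGPD1L replicate 3 the transcription factor gene STAT3 was called higher (log2 difference 0.41, adjusted p = 0.0378). In the overexpression 4 rose and 2 fell. IRF8, an interferon regulatory factor best known from myeloid cells, was at 12.1, 11.6 and 10.7 FPKM in Vector and at 6.04, 6.64 and 7.10 FPKM in OE, and fell by 0.72 on the log2 scale (limma adjusted p = 0.000866). IRF1, another interferon-induced factor, fell from 7.94 ± 0.0965 to 6.05 ± 0.173 FPKM (SD, n = 3 each; limma adjusted p = 0.0057). In the knockdown IRF8 and IRF1 were at log2 differences of 0.00 and 0.02 (limma adjusted p = 0.996 and 0.94).

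Of the 4 rises, 3 were those of JAK1, IRF5 and PTPN2, a phosphatase of JAK and STAT proteins, by 0.22, 0.25 and 0.37 on the log2 scale (limma adjusted p = 0.0228, 0.0197 and 0.0373). Their calls were lost without single libraries. For JAK1 the adjusted p was 0.0743 and 0.0769 without Vector replicate 1 or 2 and 0.0714 and 0.0568 without OE replicate 2 or 3. For IRF5 it was 0.0597 and 0.0553 without Vector replicate 1 or 3 and 0.0535 and 0.0583 without OE replicate 1 or 3. For PTPN2 it was 0.115 and 0.101 without Vector replicate 2 or 3 and 0.108, 0.0593 and 0.067 without OE replicate 1, 2 or 3, and also 0.057 without the variance trend.

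Of 15 other interferon-gamma-inducible genes tested in each comparison, 1 fell in the knockdown and 6 fell in the overexpression, with none higher in either. These were 6.67% and 40% of the list, beside 0.477% and 10.3% of all genes tested that were called lower. The list medians were -0.15 and -0.16, beside -0.04 and 0.02 over all genes tested. The knockdown call was IFI35, an interferon-induced leucine zipper protein gene, at 18.4, 18.2 and 19.9 FPKM in shNC and 11.6, 12.8 and 12.2 FPKM in shGPD1L. Its log2 difference was -0.59 (SE 0.0808, limma adjusted p = 0.0337). The call was lost without shNC replicate 1, 2 or 3 (adjusted p = 0.195, 0.165 and 0.197) and without shGPD1L replicate 1 or 2 (adjusted p = 0.162 and 0.0775), and kept without replicate 3 (0.0122). It was also lost with quantile normalization (limma adjusted p = 0.0528). Without shNC replicate 1, 2 or 3 the knockdown had 1, 0 and 0 called genes in all. GPD1L itself lost its knockdown call there (limma adjusted p = 0.0683, 0.0527 and 0.0839). Without shGPD1L replicate 3 this list had 2 calls, IFI35 and CXCL9, both lower. In the overexpression the immunoproteasome subunit genes PSMB9 and PSMB10 and the guanylate-binding protein gene GBP3 fell by 0.70, 0.43 and 0.48 on the log2 scale (limma adjusted p = 0.0043, 0.00323 and 0.00146). The knockdown values of these 3 genes were 0.06, -0.34 and -0.19 (adjusted p = 0.926, 0.587 and 0.575).

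Of 14 other genes of CD14 and Toll-like receptor signalling tested in each comparison, 0 were called by limma in the knockdown, with 0 at an unadjusted p under 0.05 and 0 called without shGPD1L replicate 3. In the overexpression 1 fell and 1 rose. MYD88, the adaptor of most Toll-like receptors, fell from 16.9 ± 1.21 to 12.6 ± 0.425 FPKM (SD, n = 3 each; log2 difference -0.40, limma adjusted p = 0.00463). MAP3K7, a kinase downstream of it, rose by 0.18 (adjusted p = 0.0457), a call that was lost without any 1 of the 6 libraries (adjusted p = 0.0815 to 0.116), and with no filter, median-of-ratios scaling or quantile normalization (0.0553, 0.0634 and 0.0834). TLR4 and LY96, the receptor and co-receptor that CD14 serves, were not listed in either comparison.

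Around PTAFR, 9 genes for making and breaking down platelet-activating factor were tested in each comparison, and 0 were called by limma in the knockdown, with 1 at an unadjusted p under 0.05 and 0 called without shGPD1L replicate 3. LPCAT1, an acyltransferase gene of the synthesis, fell from 37.7 ± 1.7 to 29.3 ± 1.68 FPKM in the overexpression (SD, n = 3 each; limma adjusted p = 0.00503). LPCAT2, the inducible synthesis enzyme, was at log2 differences of -0.17 and -0.11 (limma adjusted p = 0.386 and 0.205), and PAFAH1B3, an acetylhydrolase subunit, at -0.10 and -0.07 (adjusted p = 0.741 and 0.533).

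Around LAT2, 13 adaptors and signalling partners were tested in each comparison, with 0 called by limma in the knockdown and 4 at an unadjusted p under 0.05. Without shGPD1L replicate 3 the scaffold gene GAB2 was called higher in the knockdown (log2 difference 0.53, limma adjusted p = 0.0384). In the overexpression 3 fell and 3 rose. LCK, a SRC family kinase gene, fell by 0.43 on the log2 scale, to 10.1 ± 1.06 FPKM in OE (SD, n = 3; limma adjusted p = 0.00648). The adaptor genes LIME1 and PAG1 fell by 0.78 and 0.30 on the log2 scale (limma adjusted p = 0.0193 and 0.0483). The LIME1 call was lost without Vector replicate 2 or OE replicate 1 or 2 (adjusted p = 0.0688, 0.0577 and 0.0591), and the PAG1 call without any 1 library (adjusted p = 0.0736 to 0.137). The PAG1 call was also lost with a pseudocount of 0.1 FPKM, equal library totals or quantile normalization (limma adjusted p = 0.0513, 0.0604 and 0.0762). GAB2 and the ubiquitin ligase gene CBL rose by 0.38 and 0.31 (limma adjusted p = 0.0126 and 0.0073). SOS1, a RAS exchange factor gene, rose by 0.30 (adjusted p = 0.0188), a call lost without Vector replicate 2 or OE replicate 1 or 3 (limma adjusted p = 0.0635, 0.0555 and 0.0509). LAT, the T cell relative of LAT2, was at -0.20 and -0.04 (limma adjusted p = 0.285 and 0.757), LYN at -0.02 and 0.07 (adjusted p = 0.944 and 0.624), and SYK at -0.37 and 0.01 (adjusted p = 0.154 and 0.916).

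Because several of the 7 genes are typical of leukocytes, markers of other cell types were read in the same libraries. Of 22 myeloid markers 2 were listed, CD68 and ITGAX, whose summed level was 30.2 to 35.7 FPKM in shNC, 21.7 to 34.9 FPKM in shGPD1L, 22.9 to 25.8 FPKM in Vector and 22.8 to 25.3 FPKM in OE. Neither was called by limma in either comparison (adjusted p = 0.283 and 0.922 in the knockdown, 0.145 and 0.072 in the overexpression), and CD68 was called lower without shGPD1L replicate 3 (log2 difference -0.55, adjusted p = 0.0215). PTPRC, CSF1R, ITGAM and SPI1 were not listed in either comparison. Of 14 lymphocyte markers 1 was listed, CD8A, at group means of 0.694 to 1.18 FPKM, and of 10 fibroblast and endothelial markers 2, COL1A1 and PDGFRB, at group means of 0.458 to 1.40 FPKM. PDGFRB fell by 0.41 on the log2 scale in the overexpression (limma adjusted p = 0.0199), a call lost without Vector replicate 1 or 3 or OE replicate 1 (adjusted p = 0.0628, 0.0595 and 0.058). PDGFRB passed the filter there through its Vector libraries alone, since its OE mean was 0.799 FPKM.

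The epithelial genes EPCAM, KRT8, KRT18 and CDX2 were present in every group, with KRT8 at group means of 1650 to 2470 FPKM and EPCAM at 183 to 343 FPKM. The 7 tested genes of the colon epithelial list had 0 limma calls in the knockdown, with 4 at an unadjusted p under 0.05. Without shGPD1L replicate 3, VIL1 and KRT19 were called lower (log2 differences -0.55 and -0.34, limma adjusted p = 0.0105 and 0.0452). In the overexpression all 7 were called, 3 higher and 4 lower (22.4% of all genes tested were called there). CDX2, VIL1, CDH1 and EPCAM fell by 0.59, 0.52, 0.31 and 0.21 on the log2 scale (limma adjusted p = 0.00217, 0.000252, 0.00155 and 0.00724). KRT19 and KRT18 rose by 0.30 and 0.21 (limma adjusted p = 0.00217 and 0.00806). KRT8 rose by 0.15 (adjusted p = 0.0225), a call lost without any 1 Vector library or without OE replicate 2 or 3 (limma adjusted p = 0.0536 to 0.0761), and without the variance trend (0.0673). The part of these marker changes in the levels of the 7 genes was not tested.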

How the data were processed

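Poly(A) RNA of 12 SW480 libraries was sequenced. The authors deposited 2 tables of FPKM, 1 for each comparison; per the submitters' processing notes the tools include HISAT2, StringTie and DESeq2, and the build is GRCh38. Their roles, the annotation release and any filter are not stated there. No strand-keeping step is described, per the labels' protocols. Reads could not be recovered from the FPKM, so depth is unknown. Groups follow the sample titles, since the digit in the gene name of the genotype labels runs with the replicate and was read as a slip. Genes were positioned with GENCODE release 29.

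Values were transformed to log2(FPKM + 1). Genes averaging 1 FPKM or more in a table were tested with limma 3.58.1 in R 4.3.3, with the variance prior following the mean level, and called at a Benjamini-Hochberg adjusted p under 0.05. Changes were simulated only for genes at higher mean levels, so the recovery of genes at low FPKM is not covered. Of simulated log2 changes of 0.5, the test recovered 37 of 100 in the knockdown and 81 of 100 in the overexpression. At a log2 change of 1.0 it recovered 87 and 99 of 100. A gene not called in the knockdown is therefore not shown to be unchanged. The 7 genes and the lists were chosen with earlier results of these data known, so the 7 genes have no test and lists are described by counts and medians. Named genes were the 7, GPD1L, 15 partners, up to 3 rising and 3 falling called genes per list with separate groups, and 3 genes of highest and 1 of lowest correlation per member; genes named beyond these (further list genes and chromosome neighbours) were chosen after their values were seen. Some genes that the rule names are not reported here. The motifs' letters were chosen with the promoter sequences in view. Alternatives were other pseudocounts, filters, scalings and variance models, a replicate block, and each library left out in turn. Same-numbered libraries did not deviate together (correlations of -0.18 to -0.016 in the knockdown and -0.061 to 0.022 in the overexpression). Python 3.11.15 with matplotlib 3.10.9 made the figures.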

Additional observations from a re-analysis of the deposited data

How the results depend on the processing

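Of the 14 log2 differences of the 7 genes, 13 were below 0 under each of their 12 alternatives, and the exception was CX3CL1 in the knockdown, from -0.09 to 0.03. The genes were chosen because such differences were below 0, so nothing is read from this count. The replicate block, counted among these alternatives, cannot change a difference of group means. Differences moved by more than the spread between libraries for PTAFR in the knockdown, at -0.91 and -0.76 with pseudocounts of 0.1 and 0.5, -0.60 with median-of-ratios scaling and -0.57 with quantile normalization; for PTAFR in the overexpression, at -0.77 and -0.62 with those pseudocounts; and for CD14 in the overexpression, at -1.08 and -0.82. The knockdown count of 72 called genes was 27 with quantile normalization, and ran from 0 to 608 when each library was left out. The list genes called there, 1 as reported, were 0 with quantile normalization and 0 to 11 when each library was left out. The overexpression count of 2740 ran from 1540 to 1982 when each library was left out, and that of list genes from 26 to 28. With the replicate block, 3 knockdown genes and 0 list genes were called, and in the overexpression 2021 and 28. The labels do not say whether the replicate numbers pair these libraries. Among named genes the block also took the calls of IFI35 in the knockdown (limma adjusted p = 0.196) and of PAG1, MAP3K7, PDGFRB and IRF5 in the overexpression (0.0869, 0.0851, 0.0533 and 0.0508). Of the calls, 19.4% were higher in the knockdown, against 27.3%, 29.4% and 37% with equal totals, median-of-ratios scaling and quantile normalization, and 54.2% in the overexpression, against 71.5%, 46.1% and 49.6%. Of 32 called results for named genes, 21 kept their call under all alternatives run. The number of reads is unknown, so counting error at the low FPKM of PTAFR and CD14 cannot be given.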
